A study of Mus musculus with 8 samples.

Results

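Riken and Gm names are placeholders in the mouse gene catalogue. A Riken name (ending in Rik) is the number of a clone from the RIKEN full-length cDNA project, and a Gm name is the number of a gene model predicted by annotators, so neither says what the gene does. The names with this form were taken from the symbol column of the deposited tables, and 1 contig whose name has it was left out by the rule. That gave 82 contigs, each a single annotated transcript, from 70 genes, of 2783 contigs in all. There were 57 Riken contigs from 46 genes and 25 Gm contigs from 24 genes. In GENCODE, 65 of the 82 are protein-coding, 8 are pseudogenes, 5 are non-coding and 4 are marked for nonsense-mediated decay.

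The samples were whole testes of adult male mice, 2 mice in each of 4 groups. Tent5c wt/wt mice carry the normal gene for TENT5C, a non-canonical poly(A) polymerase, and Tent5c dcat/dcat mice carry a catalytically dead version of it in every tissue. Mice of each genotype received either vehicle or 1 injection of busulfan at 20 mg/kg, and testes were taken 4 weeks later. Poly(A) RNA was read by nanopore direct RNA sequencing, in which 1 read is 1 RNA molecule with its tail. The 8 libraries held 29574 to 129074 reads. The dcat allele changes the protein and not the presence of the RNA, and Tent5c was read in every library (22 to 115 reads after vehicle, 18 to 66 after busulfan), so read counts do not check the genotype labels.

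Busulfan alkylates DNA and kills spermatogonia as they divide, so that the later germ cells are lost as they mature without being replaced, while Leydig, Sertoli, peritubular and other somatic cells remain. In a testis that has lost germ cells, germ-cell RNA takes a smaller share of the reads and somatic RNA a larger one, so the busulfan response of a transcript of unknown function places it beside known germ-cell or somatic genes. Germ cells are also known for tail control. Spermatid mRNAs are stored with long poly(A) tails, whereas mitochondrial mRNAs carry short ones. In these bulk samples, fewer cells of a type and less RNA per cell cannot be told apart.

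One library stands apart. The dcat busulfan replicate 2 mouse kept more germ-cell RNA than the other busulfan mice: its 13 late spermatid markers summed to 36194 CPM (read counts scaled to the library's total), against 19241 in dcat busulfan replicate 1, 7812 and 10804 in the wt busulfan libraries and 86698 to 110469 after vehicle. The markers checked the tissue and the treatment. In wt, 13 of 13 late spermatid, 7 of 7 round spermatid and 6 of 6 spermatocyte markers fell after busulfan. There 10 of 10 Leydig, 9 of 9 Sertoli, 3 of 3 peritubular and 4 of 4 macrophage markers rose. In dcat 11 of 13, 7 of 7 and 5 of 6 of the germ-cell markers fell, and all of these somatic markers rose. The 2 erythroid markers read rose in wt, to sums of 924 and 771 CPM. In dcat neither was called, and their sums after busulfan were 0 and 20.7 CPM. Of 7 spermatogonia markers, 1 (Uchl1) was read, and it rose by 1.81 on the log2 scale in wt and by 2.39 in dcat. The sums of the Leydig markers were 3727 to 6695 CPM after vehicle and 22151 to 47399 CPM after busulfan. CPM values of single contigs are also scaled by edgeR's TMM factors.

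Several members are near copies of other genes, and their sequences decide which reads can be assigned to them. On chromosome 1, 3 single-exon pseudogenes lie side by side on the minus strand (GRCm38): Gm28437 at chr1:24613189-24613971, Gm28661 at chr1:24614885-24615565 and Gm29216 at chr1:24615706-24616197. All 783 bases of Gm28437 match the mitochondrial gene mt-Co3 and all 681 bases of Gm28661 match mt-Co2 without a mismatch. Of Gm29216, 483 bases align to mt-Co1 at 99.8% identity, with 1 mismatch. These 3 mitochondrial genes encode subunits of cytochrome c oxidase, the last enzyme of the respiratory chain. The windows below are transcript sequences from GENCODE, 5′ to 3′, and the single difference between Gm29216 and mt-Co1, T13A counted from the 5′ end of Gm29216, is in capitals.
Gm29216: ggaTttgttttatccaactcatcccttgac
mt-Co1: ggaAttgttttatccaactcatcccttgac
Gm28437 and mt-Co3: atgacccaccaaactcatgcatatcacata
Gm28661 and mt-Co2: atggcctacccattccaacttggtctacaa

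The same holds for nuclear genes. Gm10053, a single-exon model at chr19:24875686-24876631 on the plus strand, differs from Cycs, the gene for cytochrome c, at 1 of 946 bases, A417T counted from the 5′ end of Gm10053 (in capitals below). Gm12918 is identical to the aligned part of Rpl13, a large ribosomal subunit protein gene, over all its 636 bases.
Gm10053: attacaaaacaaatgActcatggcttttaa
Cycs: attacaaaacaaatgTctcatggcttttaa
Gm16405 and Gm16430, both on chromosome X, are identical to each other over 703 bases, and reads cannot be split between them. In all, 14 members besides the 3 mitochondrial copies align to another gene at 90% identity or more over at least 80% of their length, and 7 more share at least 30% of their exonic bases with a gene on the same strand. That left 58 contigs with neither. These limits were chosen after the values were seen, and the classes are used only to describe.

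The 3′ ends of the annotated transcripts were searched, and the 3′ ends of the reads were not examined. Cleavage usually follows a hexamer, AATAAA or its variant ATTAAA. The last 50 annotated bases held AATAAA in 49 of the 82 members (59.8%), only ATTAAA in 6 (7.32%) and neither in 27 (32.9%). Over all 2738 contigs with a sequence the shares were 65.2%, 13.8% and 20.9%. The windows below lie within these last bases of members named further on, with the hexamer nearest the 3′ end in capitals. That of 1700084M14Rik overlaps an earlier AATAAA. Gm5617 and Gm28437 have no such hexamer in their last bases.
1700084M14Rik: aaataaAATAAAatcaatctaatatgaaaa
2610318N02Rik: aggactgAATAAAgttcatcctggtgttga
1700009N14Rik: tgcttaaAATAAAgtagcttttcaaacacc
4930453N24Rik: AATAAAcattgtcatttgcttattgtcatc
Gm14226: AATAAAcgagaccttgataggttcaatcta
1500009L16Rik: tcaacaATTAAAcatttttatccctcttta
Gm5617: agcttacaaacaaggcctctccaaaaatca
Gm28437: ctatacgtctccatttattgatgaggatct

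Most members behaved as germ-cell transcripts do. In wt testes 67 of the 82 contigs (57 genes) fell after busulfan and 10 rose (edgeR's quasi-likelihood test, Benjamini-Hochberg adjusted over all 2783 contigs). Over all contigs 38.3% fell and 35.4% rose. Per the methods, the authors kept contigs with 10 reads or more in at least 2 replicates of 1 condition. A contig that met this limit through 1 group alone was chosen for being high there, which favours a fall or a rise. How far this shaped the calls was not tested. Among the members the log2 fold changes had a median of -3.90, against 0.09 over all contigs. With the 6 contigs that have a group without reads set to their bound it was -3.73. The first of these lay beside the median of the late spermatid markers (-3.87), between those of the spermatocyte (-2.999) and round spermatid markers (-4.87), and far from those of Leydig (3.17) and Sertoli markers (2.95). For none of the 77 did the wt vehicle and busulfan libraries overlap in CPM. The same libraries gave the calls, so this adds no support to them. Of the Riken contigs 52 fell and 3 rose, and of the Gm contigs 15 fell and 7 rose.

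In dcat testes 57 members fell and 8 rose, against 31.4% and 31.3% of all contigs. The medians were -1.91 for the members and 0.14 for all contigs, and the late spermatid median was -1.83. The 2 busulfan comparisons share no library. All 57 contigs that fell in dcat were among the 67 that fell in wt (85.1% of them), and 7 contigs rose in both. Over all contigs 850 fell in both, which is 79.7% of those that fell in wt and 97.1% of those that fell in dcat. Without dcat vehicle replicate 2, the deepest library, 35 members passed in dcat (31 lower and 4 higher), and without dcat busulfan replicate 2, the library with the most germ-cell RNA, 63 did (55 lower and 8 higher).

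**Figure D1:**
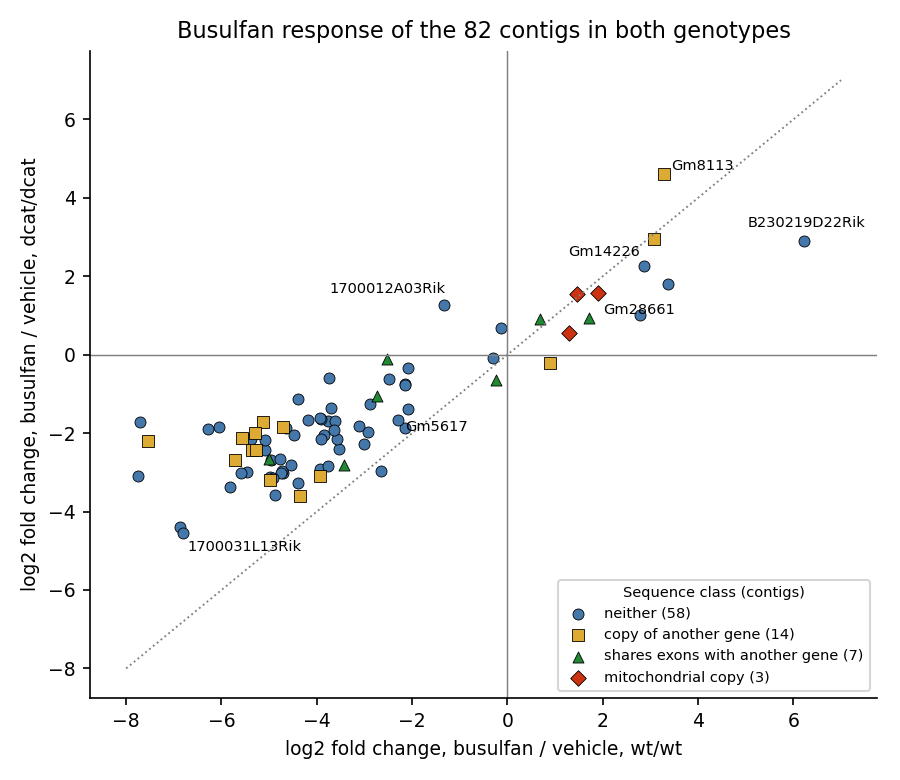
Log2 fold change of busulfan over vehicle in wt/wt (x) and dcat/dcat testes (y) for each of the 82 contigs, coloured by sequence class; the dotted line marks equal change. Most points lie in the lower left quadrant and above the dotted line there. The labelled contig of 1700012A03Rik and another contig of this gene lie in the upper left. Values of contigs with no read in a group depend on the fit and are not bounds.

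The most read member of unique sequence was Gm5617, a single-exon protein-coding gene at chr9:48495442-48495972 on the plus strand. It had 188 and 292 reads in the wt vehicle libraries and 44 and 105 in the wt busulfan libraries. On the CPM scale this was 3641 and 4175 against 576 and 988.5, a log2 fold change of -2.31 ± 0.34 (SE, n = 2 and 2, edgeR adjusted p = 3.7e-06). In dcat it had 5343 and 3962 CPM after vehicle and 1413 and 1511 after busulfan, a log2 fold change of -1.66 ± 0.33 (edgeR adjusted p = 0.00034). Its fall was among the smaller ones: 7 of the 67 fell by less.

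Next by reads came 5 other members that fell, 3 of them further than Gm5617. 2610318N02Rik (chr16:17113398-17125106, minus strand) had 84 and 128 wt vehicle reads against 3 and 6 after busulfan, a log2 fold change of -5.10 ± 0.57 (edgeR adjusted p = 1.6e-07). 1700084M14Rik (chrX:91575210-91575911, minus strand) had 84 and 110 against 2 and 9 reads, and its log2 fold change was -4.72 ± 0.56. 1700003F12Rik (chr2:154548888-154550003, plus strand) had 57 and 107 against 2 and 7 reads, with a log2 fold change of -4.72 ± 0.61. 4930453N24Rik (chr16:64762136-64771161, minus strand) had 62 and 108 against 12 and 47 reads and a log2 fold change of -2.15 ± 0.41. 1700009N14Rik (chr4:39450295-39451776, plus strand) had 46 and 64 against 13 and 26 reads and a log2 fold change of -2.09 ± 0.40. In each of the 5, both busulfan values were below both vehicle values.

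Many falls ended at few or no reads. Of the 82 contigs, 5 had no read in either wt busulfan library. For these a fold change can only be bounded, here against a floor of 3 reads in each busulfan library. A second contig of 2610318N02Rik had 20 and 21 wt vehicle reads and was at least 10.2-fold lower after busulfan. 1700001J03Rik had 9 and 35 reads and was at least 9.996-fold lower. 1700001F09Rik, which is near-identical to 10 other genes, had 12 and 25 reads and was at least 8.74-fold lower. 1700024G13Rik (10 and 13 reads) and 1700031L13Rik, a long non-coding RNA (12 and 10 reads), were at least 5.62-fold and 5.56-fold lower. Members with a few reads left had large falls too: 1700034E13Rik had 30 and 36 against 0 and 1 reads, 99.2-fold fewer (95% counting interval 17.2 to 3975), and 1700013G24Rik had 54 and 44 against 0 and 2, 73.6-fold fewer (19.8 to 616). In all, 31 members had 1 to 3 reads in the wt busulfan libraries together. So 36 of the 67 that fell were near the limit of the depth, and these met the authors' read limit only through other groups.

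In dcat the same contigs left a few reads. 1700001J03Rik had 28 and 83 reads after vehicle and 2 and 12 after busulfan. Counting intervals here and below cover counting error only. Large falls there were those of 1700031L13Rik, with 6 and 23 reads after vehicle and 0 and 1 after busulfan (28.8-fold, 95% counting interval 4.78 to 1177), and 1700024G13Rik, with 6 and 20 reads against 0 and 1. 1700012B09Rik (21 and 58 against 0 and 7 reads) fell by 3.59 ± 0.62 on the log2 scale, and Gm16405 (10 and 41 against 1 and 3 reads) fell by 3.59 ± 0.62. Gm16430, its identical partner, had 11 and 37 against 1 and 8 reads, so the pair moved the same way however its reads were split.

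Of the 65 protein-coding contigs 56 fell in wt, 6 rose and 3 were not called. Of the 5 non-coding contigs 4 fell in wt and 1 was not called. Of the 4 contigs marked for nonsense-mediated decay 3 fell and 1, Gm21981, rose. Of the 8 pseudogenes 4 fell, and the 3 that rose were the mitochondrial copies. The pseudogenes that fell include 1700019M22Rik on chromosome 12 (38 and 66 wt vehicle reads, 0 and 3 after busulfan), which matches the X-linked 1700084M14Rik at 92.0% identity over 326 bases. They also include 1700001J11Rik and Gm7444 on chromosome 9, which match each other at 96.2% identity. Of the 82 members 8 are on chromosome X (9.76%), against 97 of the 2739 contigs found in the annotation (3.54%).

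The promoters were searched for 4 short motifs. RefSeq promoters (250 bases before to 50 after the start, GRCm38.p6) were at hand for 46 of the 57 genes that fell and 3 of the 10 that rose. On either strand, the cAMP response element TGACGTCA, the site of the spermatid activator CREM, was in 0 of the 46 and in 2.03% of all genes. Its first part TGACG, which overlaps it, was in 9 of the 46 (19.6%) and in 23.0% of all genes. GTTGCC, part of the site of RFX factors, was in 8 (17.4%) and in 14.1% of all genes, and TATAAA was in 5 (10.9%) and in 15.7%. The shares are descriptions of these windows.

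Several genes had 3 contigs each, and their isoforms share exons, so reads can move between them. All 3 contigs of 1700029H14Rik fell in wt: 22 and 27 reads became 0 and 6, 16 and 17 became 1 and 2, and 13 and 15 became 0 and 3. All were called lower in dcat as well, the last of them not with the replicate block (edgeR adjusted p = 0.0875). All 3 contigs of 1700016H13Rik fell in wt by 2.14 to 2.88 on the log2 scale, and only the longest of them (1447 bases) was called in dcat.

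1700012A03Rik was the exception among these genes. Its 3 contigs lie at chr6:32050246-32058921 on the plus strand. The protein-coding contig had 58.1 and 114 CPM in wt vehicle and 65.4 and 94.1 in wt busulfan libraries, and a non-coding contig of 963 bases had 194 and 129 against 65.4 and 179 CPM; neither was called in either genotype. The other non-coding contig, of 623 bases, had 194 and 172 CPM after vehicle and 65.4 and 75.3 after busulfan in wt, a log2 fold change of -1.33 ± 0.56 (edgeR adjusted p = 0.035). In dcat it had 133 and 95.9 CPM after vehicle and 305 and 217 after busulfan, a log2 fold change of 1.28 ± 0.51 (edgeR adjusted p = 0.033). It was the only one of the 2783 contigs called in opposite directions in the 2 genotypes. The interaction was 2.61 on the log2 scale and did not pass (edgeR adjusted p = 0.064). Neither call was firm: the wt call was lost without any 1 of its 4 libraries (edgeR adjusted p 0.0952 to 0.163), the dcat call was lost without dcat vehicle replicate 2 (0.315) or dcat busulfan replicate 1 (0.135) and with the replicate number as a block (0.060), and DESeq2 made neither (0.0996 and 0.262).

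In wt 10 members rose after busulfan, as somatic markers did. Most of their reads came from the mitochondrial copies. Gm28437 had 1937 and 2288 CPM in wt vehicle and 5091 and 6496 in wt busulfan libraries, a log2 fold change of 1.45 ± 0.31 (edgeR adjusted p = 0.00023). Gm28661 had 1201 and 1015 against 3534 and 4764 CPM, a log2 fold change of 1.91 ± 0.32. Gm29216 had 1375 and 3131 against 5130 and 5931 CPM, a log2 fold change of 1.29 ± 0.40 (edgeR adjusted p = 0.0061, and 0.055 without wt vehicle replicate 1). The groups did not overlap for any of the 3.

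The mitochondrial genes they copy rose alike. mt-Co3, mt-Co2 and mt-Co1 rose by 1.47 ± 0.29, 1.77 ± 0.30 and 1.93 ± 0.29 on the log2 scale in wt. Gm28437 took 22.03% to 26.05% of the reads of the pair it forms with mt-Co3 in the 8 libraries, and Gm28661 took 10.4% to 14.5% of those it shares with mt-Co2. For Gm29216 and mt-Co1 the range was wider, 8.54% to 28.3%, with the highest share in dcat vehicle replicate 1. Whether any of these reads came from chromosome 1 was not tested.

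The other 7 that rose had far fewer reads, 20 to 72 in each vehicle library and 159 to 341 in each busulfan library together. Gm14226 (chr2:155018266-155027104, plus strand), protein-coding with 2 exons, had 9 and 12 reads in wt vehicle and 87 and 148 in wt busulfan libraries. Its log2 fold change was 2.86 ± 0.43 in wt (edgeR adjusted p = 4.2e-06) and 2.27 ± 0.44 in dcat (7 and 20 against 66 and 66 reads). It was the most read of the risers without a near copy. 1500009L16Rik (chr10:83722865-83762762, plus strand) had 2 and 2 against 26 and 39 reads, and rose by 3.36 ± 0.64 on the log2 scale in wt and by 1.79 ± 0.56 in dcat. 1810037I17Rik (chr3:122924203-122926184, plus strand) had 2 and 6 against 31 and 54 reads and rose by 2.79 ± 0.55 in wt. In dcat its values were 8 and 22 against 29 and 33 reads (edgeR adjusted p = 0.064).

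B230219D22Rik (chr13:55693124-55703500, plus strand) had no read in either wt vehicle library and 10 and 12 after busulfan, which makes it at least 2.41-fold higher. It met the authors' read limit only in the wt busulfan libraries, so its rise in wt is tied to how contigs were kept. In dcat it had 0 and 1 reads after vehicle and 6 and 3 after busulfan, and the dcat call was lost with DESeq2 (adjusted p = 0.158), with the replicate block (edgeR adjusted p = 0.056) and in 3 of 4 fits that left out 1 library. Gm8113, which has 3 near copies elsewhere in the genome, had 1 and 1 against 14 and 18 reads in wt, 10.7-fold more (95% counting interval 2.72 to 91.7). Gm10053, the near copy of Cycs, had 2 and 2 against 15 and 39 reads and rose by 3.07 ± 0.66 on the log2 scale, beside 2.87 ± 0.40 for Cycs itself. Gm21981, a model that shares exons with Tomm6 and Prickle4, had 4 and 4 against 10 and 31 reads and rose by 1.70 ± 0.64 (edgeR adjusted p = 0.019, 0.13 with DESeq2). Thus 4 of the 10 risers were contigs with no near copy or shared exons, against 52 of the 67 that fell.

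**Figure D2:**
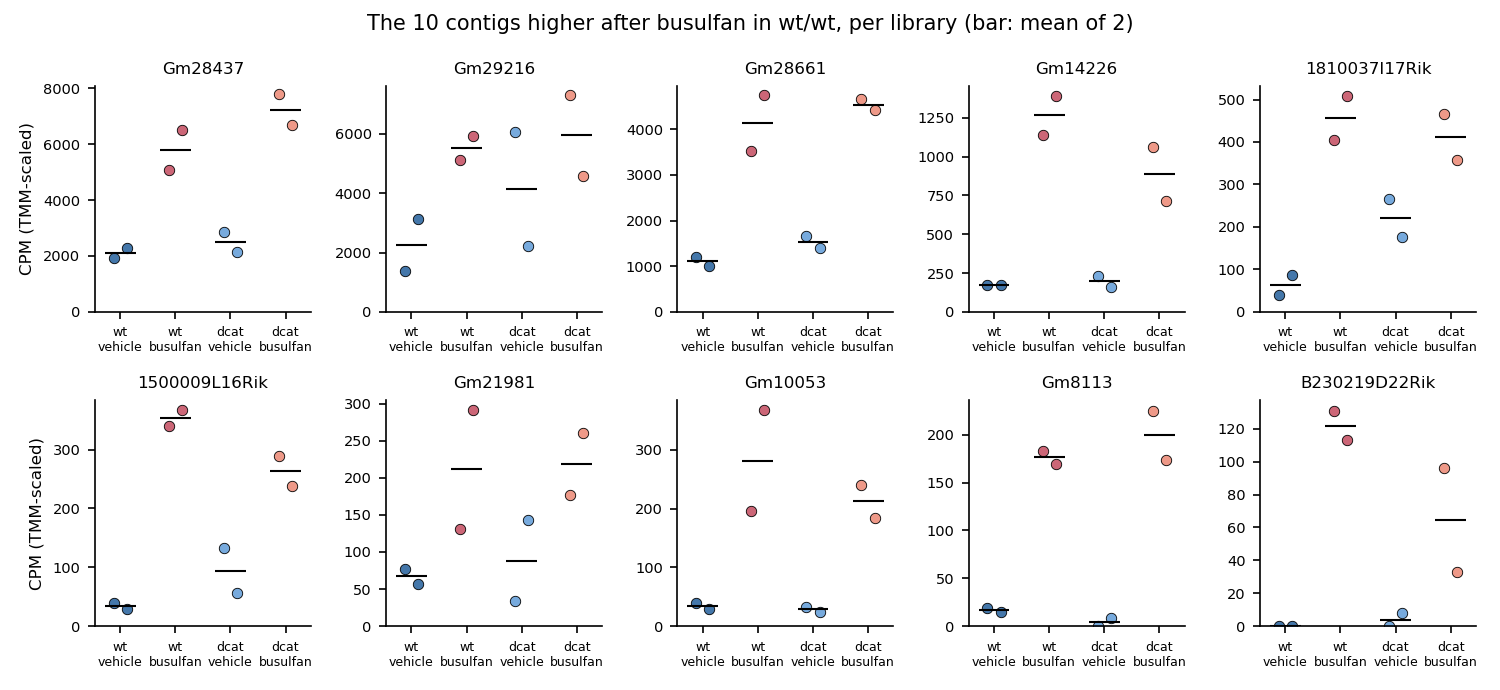
CPM (TMM-scaled, linear axes from 0) of the 10 contigs that rose after busulfan in wt/wt, 1 panel each; points are libraries and bars the mean of 2. Both busulfan libraries of wt lie above both vehicle libraries in each panel, and for Gm29216 the dcat groups overlap.

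In wt 5 contigs were called in neither direction. They were 2 contigs of 1700012A03Rik and the Gm models Gm12918, Gm45713 and Gm15517, each of the models sharing sequence with another gene. Gm12918 had 13 and 14 against 22 and 57 reads (log2 fold change 0.90 ± 0.48), beside 81 and 137 against 145 and 203 for Rpl13, which was itself not called. Gm45713, a model that joins exons of Rpl13a and Flt3l, had 11 and 16 against 26 and 39 reads.

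The 82 contigs held 3.90% and 3.89% of all reads in the wt vehicle libraries and 2.1998% and 2.32% after busulfan. In dcat they held 4.51% and 3.97% after vehicle and 2.998% and 2.81% after busulfan. The difference of the group means was -1.64 percentage points in wt and -1.34 in dcat, and the vehicle and busulfan libraries did not overlap. With 2 libraries a group the exact two-sided permutation test cannot go below p = 0.333, which is what it gave in both. Without the mitochondrial copies the remaining 79 contigs held 3.35% ± 0.123 (SD, n = 2) after vehicle in wt and 0.673% ± 0.0904 after busulfan. The dcat values were 3.42% ± 0.0147 and 1.15% ± 0.223.

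**Figure D3:**
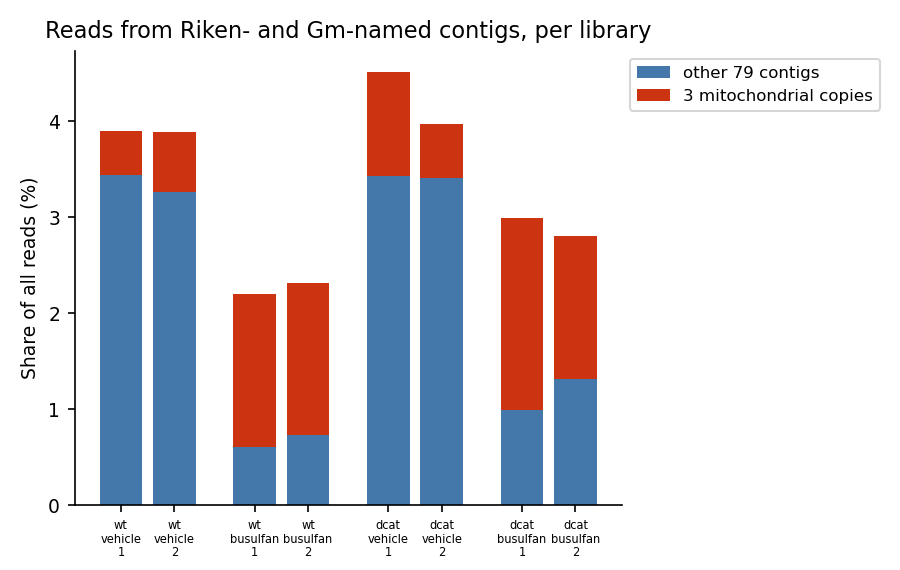
Share of all reads (%) in each of the 8 libraries that came from the 3 mitochondrial copies (red) and the other 79 contigs (blue), stacked. The blue part falls from over 3% in each vehicle library to 0.609% and 0.736% in the wt busulfan libraries and to 0.995% and 1.31% in the dcat busulfan libraries, while the red part grows.

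After busulfan, 12 members were higher in dcat than in wt and none was lower (5.39% of all contigs were higher). The median log2 difference was 1.80 for the members (1.55 with 3 contigs at their bound) and 0.20 for all contigs. The members called were 1700001J03Rik, 1700003E16Rik, 1700009N14Rik, 1700012A03Rik, 1700013G24Rik, 1700019A02Rik, 1700019M22Rik, 1700034E13Rik, 1700084M14Rik, Gm5941 and both contigs of 2610318N02Rik. Each of them had fallen in wt after busulfan, but both comparisons use the same wt busulfan libraries, and 67 of the 82 members fell in wt. These calls depended on the libraries fitted. Leaving out either wt busulfan library left 0, and DESeq2 called 5. The late spermatid markers were higher in both dcat busulfan libraries too, as given above, and their part in these calls was not tested.

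Several differences rested on few reads. Busulfan left 0 and 2 reads of 1700013G24Rik in wt and 5 and 23 in dcat, 16.6-fold more (95% counting interval 4.18 to 144). 1700034E13Rik had 0 and 1 against 2 and 17 reads, 22.5-fold more (3.57 to 934). 1700001J03Rik had none against 2 and 12 reads, at least 2.41-fold higher, and the second contig of 2610318N02Rik had none against 2 and 10, at least 2.09-fold higher. 1700009N14Rik rested on more reads, 13 and 26 in wt and 59 and 60 in dcat. It stood at 170 and 245 CPM in wt against 947 and 652 CPM in dcat, a log2 difference of 1.91 (edgeR adjusted p = 0.0075). At an unadjusted edgeR p under 0.05, 35 members were higher and 0 lower, against 488 and 76 of all 2783 contigs.

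After vehicle no member differed between the genotypes (0.0% of all contigs did), with edgeR and with DESeq2, and 4 members were higher and 1 lower at an unadjusted edgeR p under 0.05, against 45 and 20 of all contigs. The median log2 difference was 0.05. The interaction of genotype and busulfan was called for 0 of the 82 members by edgeR and by DESeq2 (0.323% of all contigs by edgeR), with 33 above and 1 below 0 at an unadjusted edgeR p under 0.05, against 399 and 52 of all contigs. The median estimate was 1.76 on the log2 scale for the members (quartiles 0.81 and 2.50) and 0.28 for all contigs (quartiles -0.35 and 1.25). Of the members' estimates 71 of 82 were above 0. With the replicate number as a block 9 members passed, and the share of all contigs under that fit is not given here.

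The tails of the members that fell were long. In the 4 vehicle libraries their pooled reads had mean tails of 150 to 158 nt, and 60.7% to 64.3% of the reads were in the window of 120 to 210 nt. Of the 26 nuclear members with at least 10 reads in every vehicle library, 16 had a mean tail over 150 nt, with a median of 154 nt and a range of 113 to 175 nt. Over all 720 contigs that met this limit, 270 had a mean tail over 150 nt, and the median was 144 nt. Of the 441 other contigs that fell, 223 were over 150 nt, and their median was 150 nt. The longest were those of 2610318N02Rik (172 to 177 nt in the 4 libraries), 1700012B07Rik (170 to 177 nt) and 1700129C05Rik (170 to 177 nt). The shortest were those of Gm50253 (97.4 to 135 nt), which shares exons with Ggnbp1 and Zbtb9, and both contigs of 1700003F12Rik (107 to 126 nt). The 3 mitochondrial copies had means of 62.3, 72.8 and 74.9 nt.

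**Figure D4:**
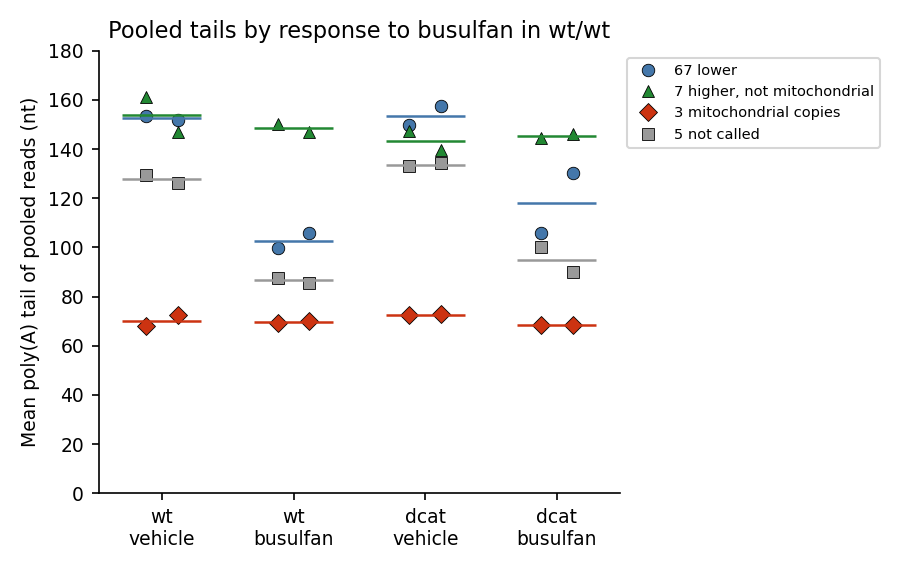
Mean poly(A) tail (nt) of the pooled reads of each class of members in each library (points) with the mean of 2 libraries (bars); classes are set by the busulfan response in wt/wt. The members that fell lie near 150 nt after vehicle and between 99.7 and 130 nt after busulfan. The members not called lie between 126 and 134 nt after vehicle and between 85.4 and 100 nt after busulfan. The nuclear risers lie between 139 and 161 nt in all 8 libraries. Gm14226 supplied 87 of 193 and 148 of 341 of their wt busulfan reads, at 180 and 179 nt. The mitochondrial copies stay between 68.2 and 72.9 nt.

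After busulfan the reads that were left from the members that fell had shorter tails. Their pooled mean was 153 and 152 nt in the wt vehicle libraries and 99.7 and 106 nt in the wt busulfan libraries (143 and 352 reads). The share of reads in the window of 30 to 120 nt was 24.9% and 26.3% after vehicle and 66.4% and 55.7% after busulfan. In dcat the means were 150 and 158 nt after vehicle, and 106 and 130 nt after busulfan. The library with the most germ-cell RNA had the longer of the last pair. The other 1000 contigs that fell had pooled means of 148 and 150 nt after vehicle and 115 and 116 nt after busulfan in wt. The difference between members and other contigs was not tested. Shorter tails were not limited to contigs that fell. The 5 members not called in wt had pooled means of 129 and 126 nt after vehicle and 87.7 and 85.4 nt after busulfan there. In dcat theirs were 133 and 134 nt after vehicle, and 100 and 89.9 nt after busulfan.

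**Figure D5:**
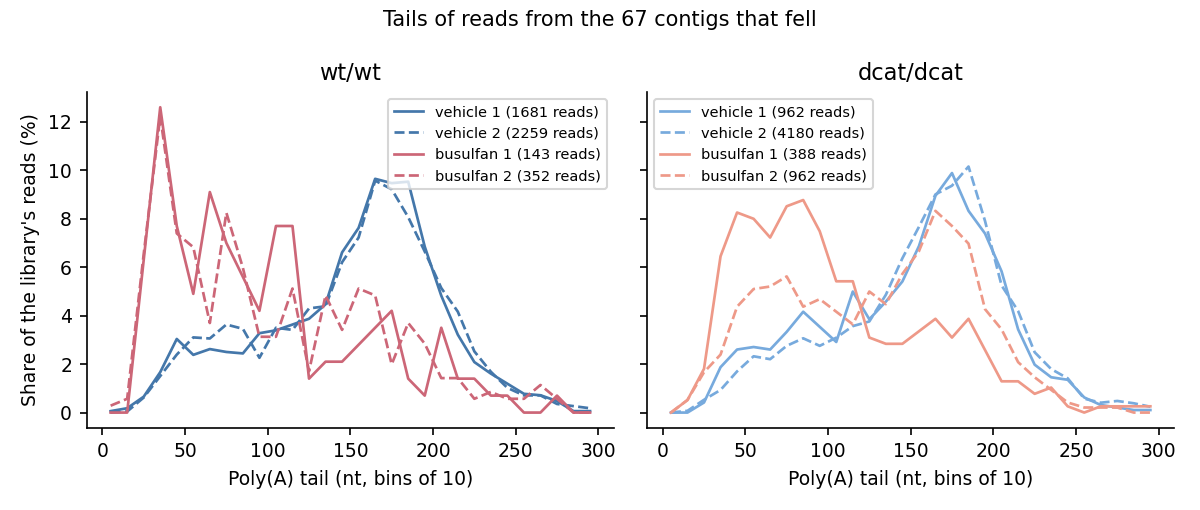
Distribution of poly(A) tails (x, nt, bins of 10) of the reads from the 67 contigs that fell, as a share of each library's reads of these contigs (y, %), for wt/wt (left) and dcat/dcat (right); each line is 1 library. Vehicle libraries peak at long tails, the wt busulfan libraries hold most reads at short tails, and dcat busulfan replicate 2 lies between them. The axis ends at 300 nt.

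A contig entered the tail test only where every library compared held 10 reads or more of it, and 8 of the 82 members met this for busulfan in wt. Of these 8, 3 had shorter tails after busulfan and none longer (limma on the mean tail per library; 34.9% of the 527 contigs tested were shorter). The same 3 were shorter in dcat, of 6 tested (29.7% of 441). They were Gm5617, 4930453N24Rik and 1700009N14Rik. These fell in wt and yet kept enough reads to be measured, so the test says nothing of the members that were lost. In dcat the counts of 4930453N24Rik and 1700009N14Rik were not called lower. For 1700009N14Rik the dcat log2 fold change was -0.34 ± 0.36 (edgeR adjusted p = 0.41).

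Gm5617 had mean tails of 140 and 147 nt in wt vehicle and 75.6 and 85.2 nt in wt busulfan libraries, a change of -63.1 ± 6.8 nt, with its SE (limma adjusted p = 4.3e-05). In dcat its tails were 153 and 148 nt after vehicle and 97.2 and 117 nt after busulfan, a difference of -43.6 ± 7.0 nt (limma adjusted p = 0.0028). The share of its reads in the window of 30 to 120 nt went from 30.3% and 27.1% to 79.5% and 67.6% in wt.

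4930453N24Rik had mean tails of 162 and 172 nt in wt vehicle and 80.4 and 80.8 nt in wt busulfan libraries, a difference of -86.3 ± 9.5 nt (limma adjusted p = 4.6e-05). In dcat they were 168 and 157 nt, and 90.7 and 116 nt. 1700009N14Rik, whose sequence aligns at 82.6% identity over 780 bases with Ran, a small GTPase of nuclear transport, had 158 and 157 nt against 63.6 and 83.7 nt in wt (-83.7 ± 9.96 nt, limma adjusted p = 9.0e-05) and 164 and 155 nt against 89.1 and 108 nt in dcat (-60.8 ± 10.1 nt). In each of the 3 the vehicle and busulfan libraries did not overlap in either genotype.

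These 3 contigs held 48.3% and 50.6% of the reads left from the members that fell in the wt busulfan libraries, against 17.6% and 20.5% after vehicle. The other 64 that fell kept 74 and 174 reads there, with pooled means of 124 and 128 nt against 155 and 151 nt after vehicle. The other contigs thus had a shorter pooled mean too, by less than the 3, and the mix of contigs in the pool differed between the treatments.

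No tail difference of the mitochondrial copies was called after busulfan. Gm28437 had mean tails of 71.9 to 76.2 nt, Gm29216 of 69.3 to 74.99 nt and Gm28661 of 58.8 to 64.5 nt over the 8 libraries. The differences in wt were -1.2 ± 3.7, 1.3 ± 3.8 and 0.5 ± 4.4 nt. In dcat both busulfan libraries lay below both vehicle libraries for each of the 3, by -2.9 to -4.6 nt on average. mt-Co3 had 70.2 to 76.6 nt, mt-Co1 69.1 to 73.6 nt and mt-Co2 57.5 to 63.5 nt, and in every library each copy lay within 3 nt of the gene it matches. When each library was centred on the median of its contigs' tails, the 3 copies were called longer in wt, by 25.4 to 27.9 nt.

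The 7 nuclear risers had pooled means of 150 and 147 nt after busulfan in wt, from 193 and 341 reads, and 161 and 147 nt after vehicle, from 20 and 27 reads. Gm14226 alone supplied 87 and 148 of the busulfan reads, and the other 6 had pooled means of 125 and 122 nt there. Gm14226 carried long tails in somatic-rich testes: 180 and 179 nt in wt and 166 and 165 nt in dcat busulfan libraries. The difference between the genotypes, -14.2 ± 8.3 nt, was not called (limma adjusted p = 0.86). The other 976 contigs that rose had pooled means of 113 and 117 nt in the wt busulfan libraries, and the difference from the nuclear risers was not tested.

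Between the genotypes no member's tail was called different, of 14 tested after busulfan (1.35% of 1188 contigs) and 29 after vehicle (0.139% of 720). At an unadjusted limma p under 0.05 there were 3 of 14 after busulfan, all longer in dcat, and 0 of 29 after vehicle. Over all contigs tested 55 were longer and 30 shorter after busulfan, and 14 and 10 after vehicle. Gm5617 had the largest difference after busulfan, 26.9 ± 6.8 nt longer in dcat (limma adjusted p = 0.12). It passed with the replicate number as a block (limma adjusted p = 0.026), without wt busulfan replicate 2 and without dcat busulfan replicate 1.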

How the data were processed

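Direct RNA reads from 8 whole-testis libraries were analysed, 2 mice in each group. Per the deposited files and the methods, the authors' steps were basecalling (Guppy), alignment to the transcripts of GENCODE vM17, GRCm38.p6 (Minimap2), barcode separation (Deeplexicon) and tail estimation (Nanopolish). The submitters' processing notes name minimap2 2.20-r1061, SAMtools and DESeq2. The deposited count matrix holds raw read counts per contig, and the authors' poly(A) table holds a tail length in nt for each read. The authors' own DESeq2 comparisons between genotypes (fold changes and adjusted p) were not used.

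Counts were tested with edgeR 4.0.16 (quasi-likelihood, TMM, all 8 libraries, every contig kept) and mean tails per library with limma 3.58.1 (eBayes with trend, at least 10 reads in each library compared), in R 4.3.3, at an adjusted p of 0.05. DESeq2 1.42.0, RLE scaling, filterByExpr, fits of 4 libraries, a block and leaving out libraries were the alternatives. The scripts were tested on simulated data. Where a group had no read, folds were bounded at 3 reads per library. With 1 to 3 reads a ratio is given with its exact 95% counting interval. Per the methods, each replicate number marks a shared multiplexed sequencing library of 1 mouse per group, so the numbers pair the samples. The main fits did not use this pairing, and the block was run only as an alternative. Deviations of same-numbered samples correlated at -0.130 to 0.246 over the 6 group pairs. With 2 mice a group, p-values rest on a spread between mice that the fits share over the 4 groups and across contigs. Counts of replicates differed by more than sampling noise in every group (chi-square per degree of freedom 1.21 to 2.47).

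The members and the lists were chosen with earlier results of these data known. Contigs were named where they were among the 8 most read, had the largest called changes without overlap (up to 4 per direction and comparison), were the most read in a tail test, belonged to a gene with 3 contigs or more, or rose in wt. Sequences are of GENCODE vM21 transcripts and RefSeq promoters, both GRCm38.p6, and all 82 contigs were found.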

Additional observations from a re-analysis of the deposited data

Results flagged for a closer look

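One contig of 1700012A03Rik, the non-coding transcript of 623 bases, moved in opposite directions in the 2 genotypes. Its log2 fold change of busulfan over vehicle was 1.28 in dcat and -1.33 in wt, and in each genotype both busulfan libraries lay on that side of both vehicle libraries. The interaction was 2.61 and did not pass (edgeR adjusted p = 0.064). The other contigs of the gene share its exons, and how reads were divided among them was not tested.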

How the results depend on the processing

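The wt busulfan counts were stable: 75 to 78 members passed under other tools and fits and 73 to 75 with 1 library left out, against 77. In dcat 35 to 67 passed with 1 library left out, against 65, the lowest without dcat vehicle replicate 2. RLE scaling moved the median of all contigs by -0.12 (wt) and -0.21 (dcat) on the log2 scale. After busulfan 12 members were higher in dcat, 5 with DESeq2, and 0 to 21 with 1 library left out, 0 without either wt busulfan library. The interaction went from 0 to 5 with RLE scaling, 3 with filterByExpr, 9 with the replicate block and 0 to 16 with 1 library left out. With the replicate block 1 tail difference between the genotypes passed after busulfan, against 0, and 0 to 1 with 1 library left out. The block changed no other count of calls by over 1.5 times. Of the tails in wt, 1 was shorter at a limit of 20 reads, against 3. On centred libraries 6 passed in wt and 5 in dcat, 3 of them shorter in each. There the change of Gm28437 was 25.4 nt in wt and, in dcat, 17.5 nt, while that of Gm29216 in dcat was 16.0109 nt, each the reverse of its uncentred sign. The difference in the share of reads in wt was -2.02 percentage points without the most read member, -1.42 with mitochondrial reads out of the total and -2.68 without the 3 mitochondrial copies, an alternative chosen after seeing the data. In dcat it was -1.80 and -2.27 without these members. With 1 library left out it was -1.69 to -1.58 in wt and -1.61 to -1.07 in dcat. For single contigs 629 recomputed values kept their side, 58 lost their call, 10 gained one, 16 changed sign with no call under either setting and the 3 given above reversed. The cause of these changes was not tested, and shares of all contigs under the alternatives are not given here. Contigs with under 4 reads in a group limit any fold to a bound or a wide interval.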
